A study of Mus musculus with 2 samples.

Results

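The genes described here are 44 transcription factor and cofactor genes that build or mark striatal neurons and the embryonic ganglionic eminences from which those neurons arise. They were chosen by name, as a list of gene symbols, with earlier results of these data known. All 44 were found among the 32531 gene symbols of the files. Their levels were read in RNA bound to tagged ribosomes of the adult mouse ventral striatum. In this method, translating ribosome affinity purification (TRAP), the ribosomal protein Rpl10a carries the green fluorescent protein EGFP in chosen cells, and an antibody against EGFP pulls down their ribosomes with the RNA on them. Both libraries, replicates 1 and 2, came from the pulled-down fraction of untreated control mice of the Stard5-TRAP line JX5852, in which a Stard5 transgene drives the tag, so that the tagged cells are those that use its regulatory sequence. They form 1 group, and no input RNA, other line or other treatment was analysed here, so levels could be described but not set against a control. Exact age, sex and any pooling were not given in the sources used here. Nothing says that the replicates came from separate animals, so the spread between these libraries may be technical. In bulk RNA of this kind, fewer cells of a type and less RNA per cell cannot be told apart.

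The output cells of the striatum, GABAergic spiny projection neurons, derive from the lateral ganglionic eminence. There, homeodomain factors of the Gsx and Dlx families specify progenitors, and zinc finger, forkhead and TALE homeodomain factors such as Bcl11b, Foxp1 and Meis2 then direct and keep the neuronal identity. The medial ganglionic eminence, marked by Nkx2-1, supplies cholinergic and many GABAergic interneurons of the striatum. Factors that act in progenitors are usually shut down in mature neurons, while identity factors often stay on for life.

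The libraries held 25830282 reads in genes (replicate 1) and 29574781 (replicate 2). Levels are given as CPM, reads per 1000000 reads in genes, and a gene was detected where each library held at least 1 CPM of it. Stard5, the gene behind the tag, had 166 and 54.9 CPM in replicates 1 and 2, and Rpl10a 99.5 and 57.5 CPM. All 12 spiny neuron markers checked were detected, with summed levels of 12168 and 9173 CPM in replicates 1 and 2. The 8 astrocyte markers, all detected, summed to 910 and 3032 CPM, and the 8 oligodendrocyte markers, all detected, to 938 and 1423 CPM. Of the other lists, the 6 microglial markers summed to 164 and 122 CPM, the 6 cholinergic markers to 98.2 and 130.0 CPM, and the 8 GABAergic interneuron markers to 112 and 170 CPM, with Vip the only gene of these lists at 0 reads. Oligodendrocyte precursor, endothelial and mural, and glutamatergic neuron markers summed to 74.9, 30.4 and 17.3 CPM in replicate 1 and to 161, 47.1 and 37.7 CPM in replicate 2.

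Of the 44 genes, 41 were detected (93.2%), against 38.0% of all symbols. At 10 CPM or more in both libraries stood 32 of the 44 genes (72.7%), against 24.0% of all symbols, and at 100 CPM or more 14 (31.8%), against 5.89%. Because the list was chosen with earlier results of these data known, these shares describe the list and test nothing. The median of the 44 genes was 49.9 CPM, against 23.1 CPM over all 12374 detected genes. Per kilobase of exon and 1000000 reads, the medians lay closer together, at 5.71 reads for the 44 genes and 5.31 for the detected genes. The 44 genes took 0.634% (replicate 1) and 0.628% (replicate 2) of all reads in genes. These reads were concentrated on few genes: the 5 with the highest CPM, Meis2, Myt1l, Foxp1, Hivep2 and Mef2a, took 53.1% of them in replicate 1 and 49.6% in replicate 2. The order of the 44 genes by CPM was similar in the libraries, with Spearman's rho of 0.96, a description across genes that share both libraries.

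**Figure D1:**
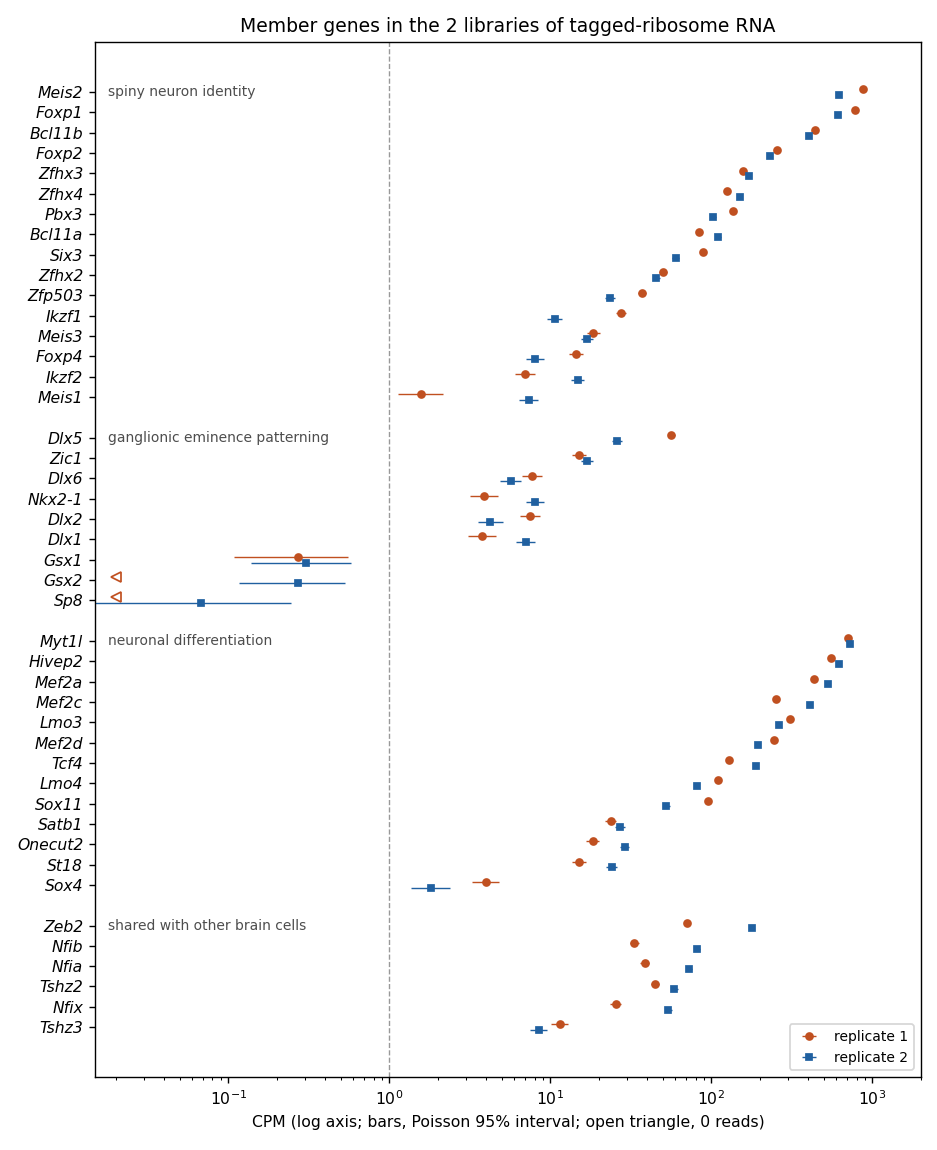
CPM of the 44 genes in replicate 1 (circles) and replicate 2 (squares) on a log axis, grouped by role and ordered by mean within each group, with Poisson 95% intervals and a dashed line at 1 CPM. The 41 detected genes lie right of the line in both libraries, and Gsx1, Gsx2 and Sp8 lie left of it. Roles were assigned after the values were seen.

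The genes were grouped by role after their values were seen. Among the genes of spiny neuron identity, Meis2, Foxp1 and Bcl11b had the highest CPM. Meis2, a TALE homeodomain factor of lateral ganglionic eminence neurons (ENSMUSG00000027210.20, chromosome 2, 115863064 to 116065839, minus strand of GRCm38), stood at 881 CPM in replicate 1 (95% interval 870 to 893) and 620 CPM in replicate 2 (611 to 629). Its mean of 751 ± 185 CPM (SD, n = 2) ranked 143 of all symbols. Foxp1, a forkhead repressor kept in spiny neurons of both output pathways (ENSMUSG00000030067.17, chromosome 6, 98925338 to 99522721, minus strand), had 783 and 611 CPM in replicates 1 and 2 and ranked 164. Bcl11b, also called Ctip2 and needed for spiny neuron differentiation (ENSMUSG00000048251.15, chromosome 12, 107910403 to 108003602, minus strand), had 442 and 407 CPM, a mean of 424 ± 24.5 CPM. Among detected genes ordered by CPM, these 3 stood at percentiles 98.9, 98.7 and 97.1.

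Their relatives had lower CPM. Foxp2, the forkhead gene tied to vocal learning, had 255 CPM in replicate 1 and 231 CPM in replicate 2. Foxp4, another forkhead gene of the family, had 14.5 and 8.05 CPM. Bcl11a, also called Ctip1, had 84.6 CPM in replicate 1 and 111 CPM in replicate 2, an order opposite to that of Bcl11b. Meis3 was close to equal in the libraries, at 18.6 and 17.0 CPM, and Meis1 had the lowest CPM of this role, at 1.59 CPM (41 reads) and 7.37 CPM (218 reads). Pbx3, a TALE partner that binds DNA together with Meis proteins, had 137 and 103 CPM.

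The remaining identity genes spanned a wide range. Zfhx3, a giant zinc finger homeodomain factor, had 157 CPM in replicate 1 and 172 CPM in replicate 2, a mean of 164 ± 10.4 CPM (SD, n = 2). Its relatives Zfhx4 and Zfhx2 averaged 138 ± 17.9 and 48.0 ± 3.13 CPM, with Zfhx4 also higher in replicate 2 and Zfhx2 higher in replicate 1. Six3, a homeodomain factor needed for indirect pathway neurons in mouse development, had 88.7 CPM in replicate 1 and 60.2 CPM in replicate 2. Zfp503, the mouse Nolz1 gene of the developing striatum, had 37.2 and 23.5 CPM. Ikzf1, the Ikaros gene of blood cells that also acts in enkephalin neurons of the developing striatum, had 27.6 and 10.7 CPM, while Ikzf2, the Helios gene, had 7.01 and 14.8 CPM. Of these 16 identity genes, all were detected, 13 reached 10 CPM in both libraries and 7 reached 100 CPM.

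Most genes that pattern the ganglionic eminences in the embryo had low CPM. Of 9 such genes 6 were detected, 2 reached 10 CPM in both libraries and 0 reached 100 CPM. Since the roles were assigned with the values known, differences between the role groups are only a description. Gsx1 and Gsx2, which set the identity of eminence progenitors, were at 7 and 0 reads in replicate 1 and at 9 and 8 reads in replicate 2. Sp8, a zinc finger gene of olfactory bulb interneuron precursors, had 0 reads in replicate 1 and 2 in replicate 2. A count of 0 in replicate 1 allows up to 0.116 CPM by a limit of 3 reads and up to 0.143 CPM by the 2-sided Poisson 95% interval, both for counting error only.

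The Dlx genes lie on the genome as convergently transcribed pairs, with 9426 bases between Dlx1 and Dlx2 on chromosome 2 and 9236 bases between Dlx5 and Dlx6 on chromosome 6. They are known to support GABAergic differentiation. Dlx5 (ENSMUSG00000029755.10, chromosome 6, 6877805 to 6882085, minus strand) stood apart from the rest of the family, with 56.5 CPM in replicate 1 and 26.0 CPM in replicate 2. Its neighbour Dlx6 had 7.74 and 5.68 CPM, Dlx2 7.47 and 4.26 CPM, and Dlx1 3.79 and 7.07 CPM. Dlx6os1, a noncoding RNA from the Dlx5 and Dlx6 locus that was chosen after its value was seen, had 17.3 and 20.7 CPM. Nkx2-1, the medial eminence gene, had 3.91 CPM in replicate 1 and 8.08 CPM in replicate 2, and Zic1, a zinc finger gene of basal forebrain precursors, 15.1 and 16.9 CPM.

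Genes of general neuronal differentiation ranged from high to low CPM. Of 13 genes all were detected, 12 reached 10 CPM in both libraries and 7 reached 100 CPM. Myt1l, a repressor of non-neuronal genes (ENSMUSG00000061911.15, chromosome 12, 29528384 to 29923213, plus strand), had 704 and 729 CPM in replicates 1 and 2, a mean of 716 ± 18.1 CPM (n = 2). Hivep2, a large zinc finger protein gene also called Schnurri-2, had 559 and 622 CPM. The MADS-box genes of the Mef2 family couple calcium signals to synapse number. Mef2a had 437 and 532 CPM in replicates 1 and 2, Mef2c 253 and 412 CPM, and Mef2d 247 and 195 CPM. Mef2d was thus the only one of these 3 with more reads per 1000000 in replicate 1. Lmo3, a LIM-only cofactor without DNA binding of its own, had 310 and 264 CPM, and its relative Lmo4 110 and 81.1 CPM, both higher in replicate 1.

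The other differentiation genes all stood below the Mef2 genes in mean CPM. Tcf4, an E-protein that pairs with proneural factors, had 129 CPM in replicate 1 and 190 CPM in replicate 2. Sox11, a SoxC factor of immature neurons, had 95.7 and 52.7 CPM, whereas Sox4 of the same class had 3.99 and 1.83 CPM. Satb1, a chromatin organiser of several interneuron types, averaged 25.6 ± 2.46 CPM, Onecut2, a cut homeodomain gene, 23.7 ± 7.46 CPM, and St18, a relative of Myt1l, 19.6 ± 6.35 CPM (SD, n = 2).

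A last group is known from glia or from other neurons as well as from the striatum. The nuclear factor I genes, which promote glial and late neuronal differentiation, were all higher in replicate 2. Nfib had 33.4 CPM in replicate 1 and 81.6 CPM in replicate 2, Nfia 38.7 and 72.4 CPM, and Nfix 25.5 and 54.1 CPM. Zeb2, a zinc finger homeodomain factor of migrating interneurons, oligodendrocytes and microglia, had 71.0 CPM in replicate 1 and 178 CPM in replicate 2. Tshz2, a teashirt zinc finger gene, had 44.6 and 59.1 CPM, and Tshz3, a relative with a role in cortical and striatal circuit formation, 11.5 and 8.49 CPM. In replicate 2, 5 of these 6 genes were higher than in replicate 1, and Tshz3 was lower.

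Reads of a gene and of a gene on the other strand cannot be told apart here, because the strand setting is not given in the sources used here. In GENCODE M21, 19 of the 44 genes share exon bases with another gene, 4 of them over more than 10% of their exon length. The noncoding gene Gm26883 covers 65.2% of the exon bases of Tshz2 and Gm26735 54.6% of those of Sox4, and neither symbol is in the count files. For Meis1, Gm37818 on the same strand covers 9.77% and the antisense gene Gm16140 8.51%. Neither of these is in the count files, and Meis1 itself had only 41 and 218 reads. For Zfhx2 the antisense gene Zfhx2os covers 17.9%, with 0 reads in replicate 1 and 38 in replicate 2. For Six3, where the antisense transcript Six3os1 had 24.4 and 18.6 CPM, the overlap is 1.95%.

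Longer transcripts collect more reads, so genes of a family were compared per kilobase of annotated exon, always scaled to 1000000 reads in genes. With n = 2, the smallest p that an exact sign-flip test of such a difference allows is 0.5, and none was run. In 10 of 12 families the same gene led in both libraries. Sox11 led Sox4 by 3.90 ± 0.17 log2 units of reads per kilobase (SD, n = 2), Meis2 led Meis3 by 3.45 ± 0.27 and Bcl11b led Bcl11a by 2.83 ± 0.36. Dlx5 led Dlx6 by 2.60 ± 0.47, Tshz2 led Tshz3 by 1.86 ± 0.59, Foxp1 led Foxp2 by 1.76 ± 0.15 and Lmo3 led Lmo4 by 1.05 ± 0.15. The size of a lead depended on the length used, though none of these 7 changed direction. With the longest transcript, Bcl11b led Bcl11a by 1.69 and Lmo3 led Lmo4 by 0.46, and in CPM Meis2 led Meis3 by 5.38 and Lmo3 led Lmo4 by 1.60. In the Meis family, Meis2 held 92.4% of the reads per kilobase in replicate 1 and 89.5% in replicate 2.

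Other families had no clear leader. Mef2d and Mef2a changed places between the libraries, at 41.3 and 29.8 reads per kilobase in replicate 1 and 32.6 and 36.2 in replicate 2. With CPM in place of reads per kilobase, Mef2a led in both libraries. Nfix and Nfia also changed places, and the lead of Zfhx4 over Zfhx3, 0.16 ± 0.10 log2 units, was turned by the use of CPM, to -0.25. Ikzf1 led Ikzf2 by 2.96 log2 units in replicate 1 and by 0.53 in replicate 2, and on the CPM scale Ikzf2 was ahead in replicate 2. The lead of Gsx1 over Gsx2 rests on 24 reads in all. Across all 44 genes the highest level per kilobase was that of Meis2, at 62.3 ± 15.4 reads per kilobase, followed by Lmo3 at 55.9 ± 6.25, Bcl11b at 52.3 ± 3.02, Myt1l at 51.1 ± 1.29 and Foxp1 at 50.7 ± 8.86. These 5 means differ by less than the SD of Meis2.

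**Figure D2:**
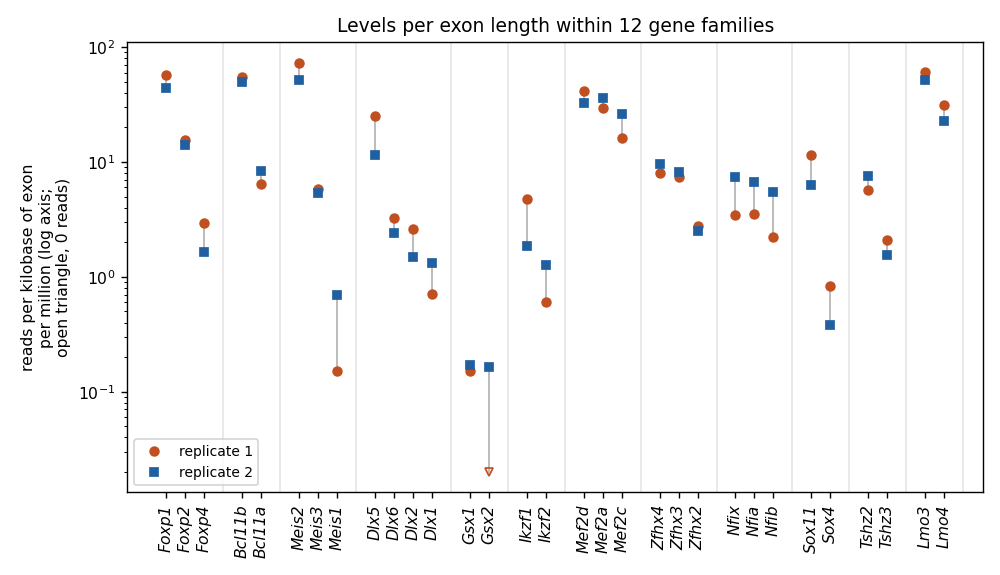
Reads per kilobase of exon and 1000000 reads (log axis) for the genes of 12 families, ordered within each family by mean, in replicate 1 (circles) and replicate 2 (squares), joined by a grey line. Meis2, Bcl11b and Sox11 lie well above their relatives in both libraries, whereas Mef2d and Mef2a swap order.

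The Meis family had the widest spread among families with all genes detected, so the promoter windows of its 3 genes are shown, each a stretch of 300 bases from 250 before the RefSeq start to 50 after it (build GRCm38.p6). The windows are those of Meis2 at chr2:116064570-116064869 on the minus strand, Meis3 at chr7:16175145-16175444 on the plus strand and Meis1 at chr11:19018920-19019219 on the minus strand. Capitals mark CG dinucleotides, the sites of DNA methylation:
Meis2: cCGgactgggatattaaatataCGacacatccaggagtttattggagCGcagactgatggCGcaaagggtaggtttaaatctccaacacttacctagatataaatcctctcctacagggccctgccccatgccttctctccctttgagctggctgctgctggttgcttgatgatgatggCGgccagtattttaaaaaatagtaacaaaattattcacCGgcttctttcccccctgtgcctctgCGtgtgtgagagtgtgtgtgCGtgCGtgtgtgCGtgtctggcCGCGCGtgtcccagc
Meis3: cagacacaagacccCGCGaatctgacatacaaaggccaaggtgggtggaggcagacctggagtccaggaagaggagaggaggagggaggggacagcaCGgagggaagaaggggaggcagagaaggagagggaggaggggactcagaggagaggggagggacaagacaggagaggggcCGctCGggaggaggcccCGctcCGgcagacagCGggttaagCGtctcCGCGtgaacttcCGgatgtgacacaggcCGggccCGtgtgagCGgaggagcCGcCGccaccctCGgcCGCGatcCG
Meis1: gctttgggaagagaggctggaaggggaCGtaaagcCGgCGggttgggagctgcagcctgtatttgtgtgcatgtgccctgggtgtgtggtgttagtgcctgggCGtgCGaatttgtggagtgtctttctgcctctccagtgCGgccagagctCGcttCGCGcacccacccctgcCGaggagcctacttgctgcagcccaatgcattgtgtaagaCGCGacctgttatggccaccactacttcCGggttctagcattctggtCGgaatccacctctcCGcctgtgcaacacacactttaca
The windows hold 13 (Meis2), 21 (Meis3) and 15 (Meis1) CG dinucleotides, and Meis2, with the highest level per kilobase, had the fewest. Promoter windows were matched for 34 of the 44 genes, and the highest CG count per gene had a median of 20.5, against 23 over 9091 detected genes and 8 over all 27025 genes of the table. The median of the 34 genes was thus nearer to that of detected genes than to that of all genes.

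Short binding motifs of members were also searched in these windows on both strands. The Dlx homeodomain core TAATTA was found in 5 of 57 windows of the genes (8.77%), against 5.29% of all 32851 windows. Counted per gene, it was in 5 of 34 (14.7%), against 3.20% of detected genes and 6.12% of all genes. Windows of 1 gene can overlap, and the 5 genes, Foxp1, Mef2c, Myt1l, Nfix and Sp8, have 3 or more windows each. The Meis core TGACAG was in 6 of 57 windows (10.5%), against 19.2% of all windows, but per gene in 6 of 34 (17.6%), against 19.4% of detected genes and 21.6% of all genes. Per window, the Foxp core TGTTTAC was in 1 (1.75%, against 3.65%) and the Mef2 site, CTA and TAG with any 4 bases between them, in 2 (3.51%, against 3.69%). The nuclear factor I palindrome, TTGGC and GCCAA with any 5 bases between them, was in 0 of 57, against 0.0365% of all windows. The TAATTA windows of Foxp1, at chr6:99266466-99266765 on the minus strand, and of Mef2c, at chr13:83523406-83523705 on the plus strand, show the motif in capitals for 2 abundant genes:
Foxp1: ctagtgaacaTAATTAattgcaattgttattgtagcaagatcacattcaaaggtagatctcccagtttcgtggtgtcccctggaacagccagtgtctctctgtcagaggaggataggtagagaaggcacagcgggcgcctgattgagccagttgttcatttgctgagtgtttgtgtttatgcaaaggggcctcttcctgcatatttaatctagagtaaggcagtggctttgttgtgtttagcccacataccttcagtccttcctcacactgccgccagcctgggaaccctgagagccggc
Mef2c: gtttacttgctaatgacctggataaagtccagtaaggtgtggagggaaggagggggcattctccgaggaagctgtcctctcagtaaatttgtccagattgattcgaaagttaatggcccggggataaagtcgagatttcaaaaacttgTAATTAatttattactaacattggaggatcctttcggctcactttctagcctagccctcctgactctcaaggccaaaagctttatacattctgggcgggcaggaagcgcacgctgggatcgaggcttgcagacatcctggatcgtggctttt
The motif starts at base 11 of the Foxp1 window and at base 149 of the Mef2c window. A match is only a match of letters.

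Other genes of the same families and programmes were read from lists of related genes, chosen, like the members, with earlier results of these data known. Of 31 paralogs of the members, 17 were detected, with a median of 5.94 CPM. Among them, Zeb1 stood at 222 ± 29.4 CPM, Tshz1 at 116 ± 36.2 CPM and Tcf12 at 79.7 ± 27.6 CPM (SD, n = 2). Hivep1, Hivep3, Nfic, Pbx2, Lmo2, Ikzf5, Ikzf4, Sp9 and Myt1 lay between 14.5 and 61.6 CPM. Dlx3, Dlx4, Six6, Zic5 and Onecut3 had 0 reads in both libraries. All 9 further striatal regulators were detected, with a median of 24.3 CPM: the activity-induced gene Egr3 stood at 257 ± 63.5 CPM, the retinoic acid receptor gene Rarb at 155 ± 39.5 CPM, its partner gene Rxrg at 35.4 ± 15.6 CPM and the direct pathway factor gene Isl1 at 27.4 ± 18.8 CPM.

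Factors of other regions and lineages took fewer reads. Of 12 medial eminence and interneuron factors 8 were detected, with a median of 11.3 CPM, led by Lhx6 at 48.3 ± 10.03 CPM and Sox6 at 36.7 ± 23.6 CPM, with Gbx2 at 0 reads. Of 14 pallial glutamatergic factors 6 were detected, with a median of 1.03 CPM, and Emx1 and Eomes had 0 reads. The highest of that list was Rorb at 36.7 ± 31.6 CPM, with 14.4 CPM in replicate 1 and 59.1 CPM in replicate 2. Among 15 diencephalic, midbrain and hindbrain factors 0 were detected and 12 had 0 reads in both libraries. Of 10 glial factors 7 were detected, with a median of 13.2 CPM and Sox8 highest at 52.4 ± 14.1 CPM. All 4 microglial factors were detected, with a median of 3.53 CPM. With exon length taken into account, the order of the lists changed. The median was 5.71 reads per kilobase for the members, 6.91 for the further striatal regulators and 4.79 for the glial factors. It was 1.33 for the paralogs, 2.10 for the medial eminence list, 0.212 for the pallial list and 0.835 for the microglial factors. For the diencephalic to hindbrain list it was 0.

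**Figure D3:**
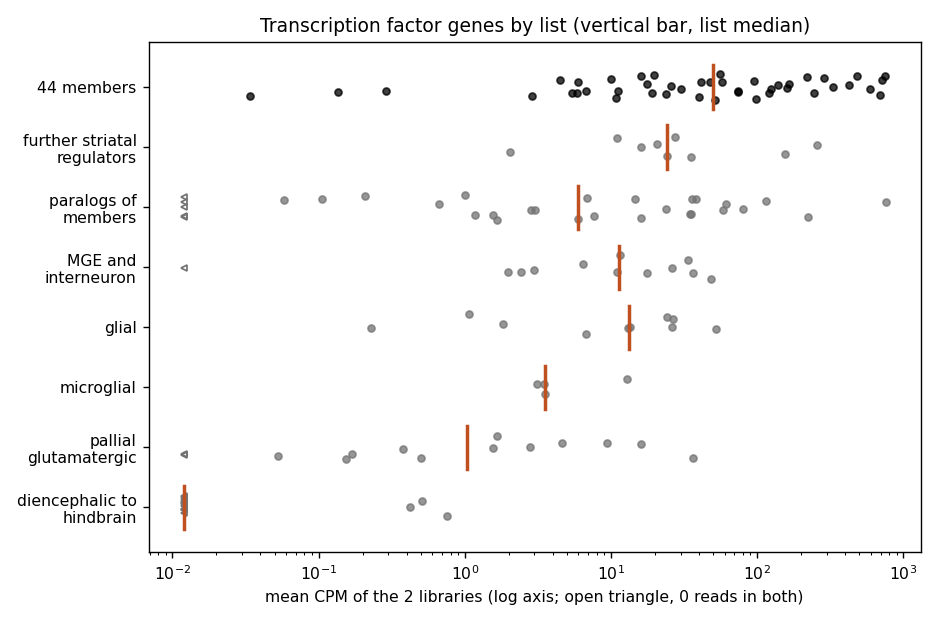
Mean CPM of the 2 libraries (log axis) for each gene of the 44 members and of 7 other transcription factor lists, with a vertical bar at each list's median and open triangles for genes with 0 reads in both libraries. The member median is 49.9 CPM, the median of the further striatal regulators 24.3 CPM and that of the diencephalic to hindbrain list 0 CPM. In reads per kilobase, which are not drawn, the member median of 5.71 lies below the 6.91 of the further striatal regulators. It lies above the medians of the other lists.

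The libraries were then compared gene by gene, with a 2-sided exact binomial test on reads over all 12374 detected genes, scaled by TMM. Calls needed an adjusted p under 0.05, by Benjamini and Hochberg's method, and a ratio of 2-fold or more. The test compares 2 libraries of 1 group, not conditions, and covers counting error only. Of the 41 detected members 9 were called (22.0%), against a background of 17.3% of all detected genes. Of these, 3 were higher in replicate 1, against a background of 7.76%, and 6 in replicate 2, against 9.52%. The median absolute log2 ratio was 0.48 over the members and 0.44 over all detected genes, and 22 of the 41 members (53.7%) lay within 1.5-fold, against 61.6% of all detected genes.

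Higher in replicate 1 were Ikzf1, 2.54-fold (binomial test with Benjamini-Hochberg adjustment, adjusted p = 4.05e-46), Sox4, 2.14-fold (adjusted p = 7.23e-06), and Dlx5, 2.13-fold (adjusted p = 4.26e-67). Higher in replicate 2 were Meis1, 4.68-fold (adjusted p = 1.48e-25), Zeb2, 2.56-fold, Nfib, 2.49-fold, Nfix, 2.16-fold, Ikzf2, 2.15-fold, and Nkx2-1, 2.10-fold. Just below the fold threshold lay Nfia, 1.90-fold higher in replicate 2, and Dlx1, 1.89-fold higher in replicate 2. The most abundant identity genes were not called: the log2 ratio of replicate 1 over replicate 2 was 0.48 for Meis2, 0.33 for Foxp1 and 0.09 for Bcl11b. Meis3, Zfhx2 and Zic1 did not pass even without a fold threshold, with adjusted p of 0.298, 0.0703 and 0.0696 in the same binomial test.

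**Figure D4:**
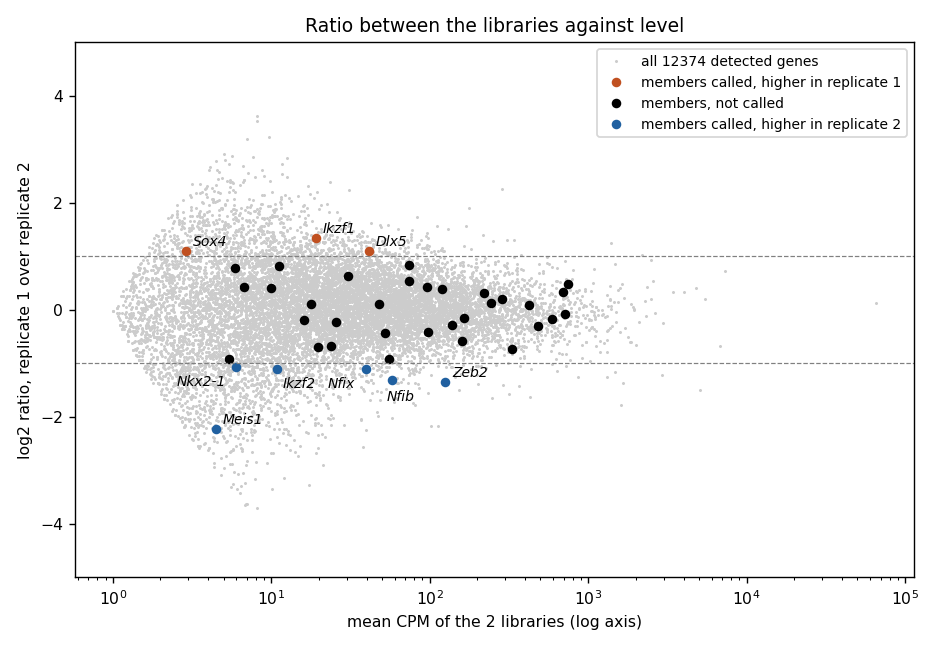
Log2 ratio of replicate 1 over replicate 2 against mean CPM (log axis) for all 12374 detected genes (grey) and the 41 detected members, with dashed lines at a 2-fold ratio. The 3 members called as higher in replicate 1 and the 6 called as higher in replicate 2 are named, and the 13 members of highest CPM lie between the lines.

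Marker levels of several cell types differed between the libraries too. Spiny neuron markers had ratios above 0 for 10 of 12 genes, 1 of them called, and none at 0 reads. Astrocyte markers had ratios below 0 for 8 of 8 genes, 6 of them called as higher in replicate 2, and none of the 8 was at 0 reads. Nfib, Nfix, Zeb2 and Nfia moved in the same direction, as did 7 of 7 detected glial factor genes, of which 1, Sox9, was called, with a log2 ratio of -1.44. Oligodendrocyte markers had ratios below 0 for 8 of 8 genes, 2 of them called. For Ikzf1, which microglia and blood cells use, the microglial markers had ratios above 0 for 6 of 6 genes with 0 called, with none at 0 reads. Of the 4 microglial factor genes, Spi1 and Runx1 were called as higher in replicate 1, with log2 ratios of 1.92 and 1.26, and Irf8 at 0.13 and Sall1 at -0.49 were not called. For Nkx2-1, the cholinergic and GABAergic interneuron markers had ratios below 0 for 5 of 5 detected genes each, with 1 and 0 called. The part of these cell types in the ratios of the members was not tested.

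Exon length moved with the ratio as well. Over 11465 detected genes with an annotated length, the log2 ratio of replicate 1 over replicate 2 fell by 0.21 for each doubling of exon length. The members were long, with a median exon length of 7566 bases, against 4836 bases over the detected genes. With this trend removed, 5 of the 9 member calls were lost, against 404 of 1905 calls (21.2%) over all genes with an annotated length. Then 3 members were called as higher in replicate 1, against a background of 6.24%, and 2 in replicate 2, against 8.4%. In all, 5 of 41 members (12.2%) were called, against 14.6% of these genes. Among the lost calls, Dlx5 stood at 0.88, Zeb2 at -0.90, Nfib at -0.95, Nfix at -0.96 and Ikzf2 at -0.81 on the log2 scale. Meis1 at -1.97, Nkx2-1 at -1.21, Ikzf1 at 1.42 and Sox4 at 1.11 stayed past the threshold, and Sox11 passed it at 1.02. Long members with small ratios changed sign, among them Myt1l, at -0.08 as measured and 0.27 with the trend removed, and Zfhx3, at -0.16 and 0.32.

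**Figure D5:**
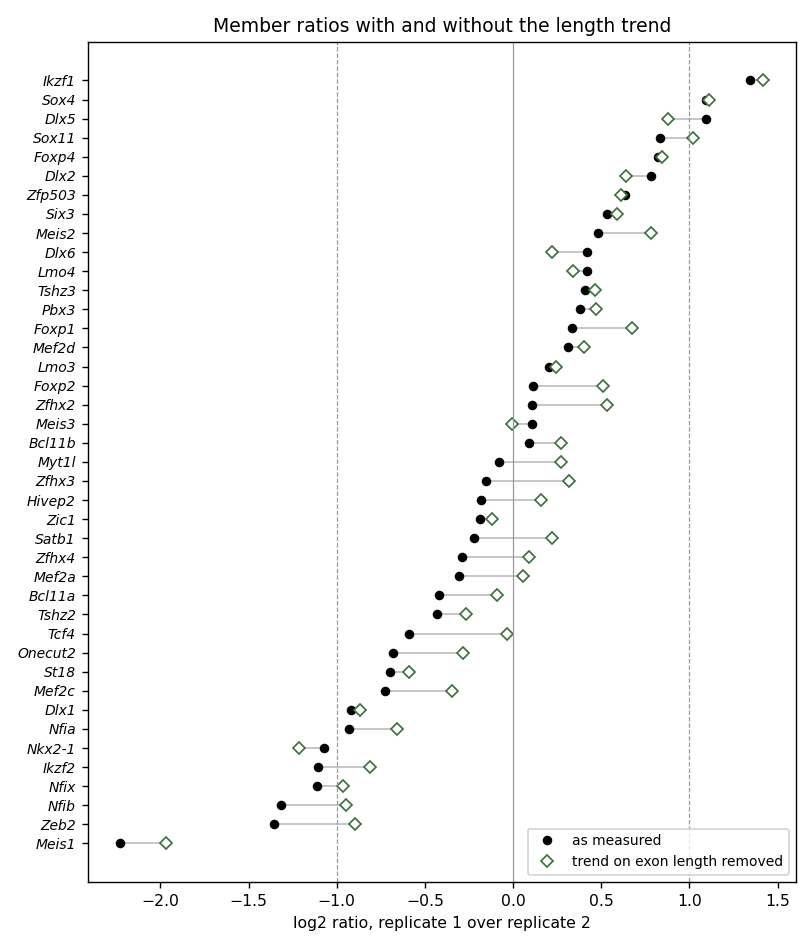
Log2 ratio of replicate 1 over replicate 2 for the 41 detected members as measured (filled circles) and after removal of the exon length trend (open diamonds), with dashed lines at a 2-fold ratio. Meis1 remains lowest and Ikzf1 highest in both, and Zeb2, Nfib, Nfix, Ikzf2 and Dlx5 move inside the lines.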

How the data were processed

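Per the labels' protocols, ventral striatum was homogenised and tagged polysomes were pulled down with antibodies against EGFP. Whole-number counts per gene symbol, as deposited by the authors, were made with STAR 2.0.0e and HTSeq on build mm10, per the submitters' processing notes. The annotation is not given in the sources used here, nor are the strand setting and any filter. Outside exons lay 22.8% (replicate 1) and 31.0% (replicate 2) of the counted reads, 27.9% and 13.6% aligned to more than 1 place and 1.84% and 2.08% were ambiguous. These lines, and a line without a gene name, were left out of totals and tests.

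Counts were converted to CPM. SDs are over the 2 libraries, and single libraries carry exact Poisson 95% intervals, which cover counting error only. Exon lengths and coordinates came from GENCODE M21 (GRCm38), matched by symbol for all 44 genes. Promoter sequences are from RefSeq, GRCm38.p6. The binomial test used scipy 1.17.1 with TMM factors of edgeR 4.0.16 and was tested on simulated data. A quasi-likelihood test had no residual degrees of freedom for a comparison of 2 single libraries. Log2 ratios use 0.5 added reads, and family differences 0.01 added to reads per kilobase and 1000000 reads. Alternatives were scaling by total reads, by DESeq2 1.42.0 size factors or without Rn45s, a ribosomal RNA precursor, other filters and folds, other lengths, removal of the length trend and leaving out each replicate.

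All members are named. Of each comparison list, the naming rule took up to 4 genes with the highest mean CPM and the lowest one, and every paralog at 10 CPM or more, and not all of them are described. The members and lists were chosen with earlier results of these data known, and the grouping by role was made after the values were seen.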

Additional observations from a re-analysis of the deposited data

How the results depend on the processing

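The numbers of detected members (41), of members at 10 CPM (32) and of members at 100 CPM (14) were the same under TMM, median-of-ratios scaling and without Rn45s in the total. With 1 replicate left out they were 41, 33 to 34 and 15 to 16, and 36 members reached 5 CPM in both libraries. The median member level was 49.9 CPM, 41.7 to 53.4 CPM with 1 replicate left out, and 5.71 in reads per kilobase and 1000000 reads, which is another unit. The 3 calls higher in replicate 1 became 7 at a 1.5-fold ratio and 18 with no fold required, and the 6 calls higher in replicate 2 became 12 and 20. Over all genes these settings gave 2342 and 4928 calls higher in replicate 1, against 960, and 2390 and 4833 higher in replicate 2, against 1178. With the length trend removed, 2 members were called for replicate 2, against 963 of 11465 genes, and 3 for replicate 1, against 715, of which 2 members were shared with the calls without that correction. With no filter beyond 1 read, 18929 genes were tested, in place of 12374. Of these, 1943 were higher in replicate 1 and 3838 in replicate 2, with 3 and 7 of the 44 members among them. With only genes averaging 5 CPM or more tested, Sox4 and Meis1 were no longer tested. Scaling by total reads or median of ratios changed no sign and no call of the 41 members.

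Removing the length trend turned the sign of 7 members: Meis3 (-0.0050), Mef2a (0.055), Zfhx3 (0.32), Zfhx4 (0.093), Myt1l (0.27), Hivep2 (0.16) and Satb1 (0.22). Leads per kilobase also changed in size with the length used, among them Bcl11b over Bcl11a (2.83, and 1.69 with the longest transcript). The lead of Mef2d over Mef2a, 0.16 log2 units per kilobase, was -1.13 in CPM, -1.10 with the longest transcript, and -0.15 to 0.47 with 1 replicate left out. The lead of Zfhx4 over Zfhx3 was -0.25 in CPM, and that of Nfix over Nfia, 0.06, was -0.51 in CPM and -0.037 to 0.15 with 1 replicate left out. The same member led in both libraries in 10 of 12 families in CPM and in 11 with the longest transcript. No paired analysis was possible because the libraries form 1 group. Depth limits Gsx1, Gsx2 and Sp8, at 9 reads or fewer in each library.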
